A study of Mus musculus with 12 samples.

Results

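The 33 genes described here encode enzymes of amino acid synthesis, amino acid transporters and stress effectors that are linked to the transcription factor ATF4. They were selected by gene symbol, through the mouse Ensembl identifiers of the count table. All 33 were found among the 55487 genes of the table, and 29 passed the filter on low counts. They comprised 12 synthesis enzymes (11 tested), 9 transporters (9 tested) and 12 stress effectors (9 tested).

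RNA was sequenced in primary mesenchymal stromal cells (MSCs) grown from the bone marrow of wild-type female C57BL/6 mice, in 3 groups of 4 libraries. Control MSCs (labelled Negative) were left untreated. A1-treated MSCs received 50 μM A1 for 6 h, and A1 + OVA-treated MSCs received 50 μM A1 together with 1 mg/ml ovalbumin (OVA), a model antigen, for 6 h. A1 is a variant of the Accum technology, in which the bile acid cholic acid is joined to a nuclear localization signal, here that of the protein hnRNPA1. The labels of the A1 + OVA group also name insulin without an amount, and there was no group with OVA alone, so that the separate parts of OVA and insulin cannot be told apart. The labels do not say whether the 4 libraries of a group came from separate animals or cultures, and the p-values then measure the spread between these libraries.

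ATF4 is the main transcription factor of the integrated stress response. Kinases that sense amino acid shortage, unfolded proteins in the endoplasmic reticulum, heme shortage or double-stranded RNA phosphorylate the initiation factor eIF2. This lowers general protein synthesis while the ATF4 mRNA is translated more, so that the amount of its mRNA is only one layer of its control. ATF4 then binds with C/EBP proteins to composite elements in genes for amino acid synthesis, amino acid import, tRNA charging and adaptation to stress. Its known targets also include brakes on the response, such as Trib3.

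Libraries held between 13702348 and 16881995 assigned counts, with group medians of 15950077 in control, 14025680 in A1-treated and 15967180 in A1 + OVA-treated MSCs. Levels are given as CPM, the counts scaled to a common size of the TMM-normalized library, with the SD over 4 libraries. Of 10 marrow stromal markers 9 were tested, with summed levels of 5540 to 6140 CPM in control, 6350 to 6790 CPM in A1 and 6370 to 6530 CPM in A1 + OVA libraries, while Nt5e (CD73) had at most 14 counts and Thy1 (CD90) at most 17 counts in any library. This sum is carried by Col1a1 (3330 CPM in control and 3250 CPM in A1 libraries) and Itgb1 (1450 and 2220 CPM). Of the 9 tested, 2 rose with A1 (Cd44, from 175 to 458 CPM, and Itgb1) and 3 fell (Pdgfra, from 247 to 125 CPM, Vcam1, from 226 to 117 CPM, and Ly6a, from 35.1 to 23.3 CPM). Blood and immune markers (8 genes) summed to at most 2.77 CPM with Cd3e at 0, and endothelial markers (5 genes) to at most 0.916 CPM. Summed adipocyte markers (4 genes, Lep at 0) went from 2.95 to 5.01 CPM in control to 1.38 to 1.95 CPM in A1 and 1.32 to 2.32 CPM in A1 + OVA libraries. Of 5 bone-forming markers only Dmp1 passed the filter, and it rose, with 0.750 CPM in control, 2.48 CPM in A1 and 1.48 CPM in A1 + OVA libraries, while Ibsp was at 0 and the others had at most 2 counts in any library, so that their summed level was 0.564 to 1.05 CPM, 2.11 to 2.90 CPM and 1.42 to 1.59 CPM. The erythroid markers (4 genes) stayed at or under 0.247 CPM. The part of these shifts in the results below was not tested. In RNA from whole cultures, a change in the share of cells that express a gene and a change in RNA per cell cannot be told apart.

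The promoter windows of the members were searched for the letters of the C/EBP-ATF composite element, because these are the sequences through which ATF4 acts. RefSeq windows on GRCm38.p6, from 250 bases before to 50 bases after a transcription start, were given for 28 members. No window was given for Cth, Eif4ebp1, Slc1a5, Slc7a3 and Slc7a5. The letters TGATGNAA, read on both strands (the reverse is TTNCATCA), occurred in 9 of the 28 members (32.1%) and in 1219 of 27025 genes with a window (4.51%). The form TGATGCAA, which is contained in it, occurred in 7 members (25%) and in 1.03% of all genes. The members are genes already linked to ATF4, and some were linked through such elements, so that the share is a description of the list. A match of letters is not a measured binding site.

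Below are the stretches for 7 of these members, chosen to set genes with a large rise, a small rise and no rise beside each other. The capitals mark the composite element letters, each sequence is read 5′ to 3′ on the strand of its gene, and the first transcribed base in RefSeq is counted as 1.
Chac1: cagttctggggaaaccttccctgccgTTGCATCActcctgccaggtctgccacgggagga
Slc7a11: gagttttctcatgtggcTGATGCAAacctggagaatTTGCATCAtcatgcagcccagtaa
Nupr1: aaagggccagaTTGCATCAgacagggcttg
Slc1a4: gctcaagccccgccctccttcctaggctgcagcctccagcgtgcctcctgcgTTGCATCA
Asns: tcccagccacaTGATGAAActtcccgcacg
Pycr1: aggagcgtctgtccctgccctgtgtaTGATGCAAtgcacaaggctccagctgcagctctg
Trib3: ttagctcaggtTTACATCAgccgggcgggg

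In Chac1 (chr2:119351023-119351082, plus strand) the element lay at bases -193 to -186, ahead of all annotated exons. Slc7a11 (chr3:50443637-50443696, minus strand) held 2 elements in opposite orientation, at -66 to -59 and at -47 to -40, and was the only member with more than 1. In Nupr1 (chr7:126625562-126625591, minus strand) it lay at -110 to -103, and in Asns (chr6:7693214-7693243, minus strand) at -23 to -16. The printed stretches of Nupr1 and Asns lie before the RefSeq start but inside an exon of the same gene in the GENCODE annotation, which has starts further upstream. In Slc1a4 (chr11:20332710-20332769, minus strand) the element spanned the start, from -4 to 4, and in Pycr1 (chr11:120643818-120643877, minus strand) it lay upstream at -103 to -96. Trib3 (chr2:152344028-152344057, minus strand) carried the form TTACATCA after the RefSeq start, at 15 to 22, which is still upstream of the GENCODE start of the gene at base 152344032. The letters also occurred in the windows of Fgf21, at -139 to -132, and Vldlr, at -200 to -193, both of which were at or near 0 counts in these cells.

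**Figure D1:**
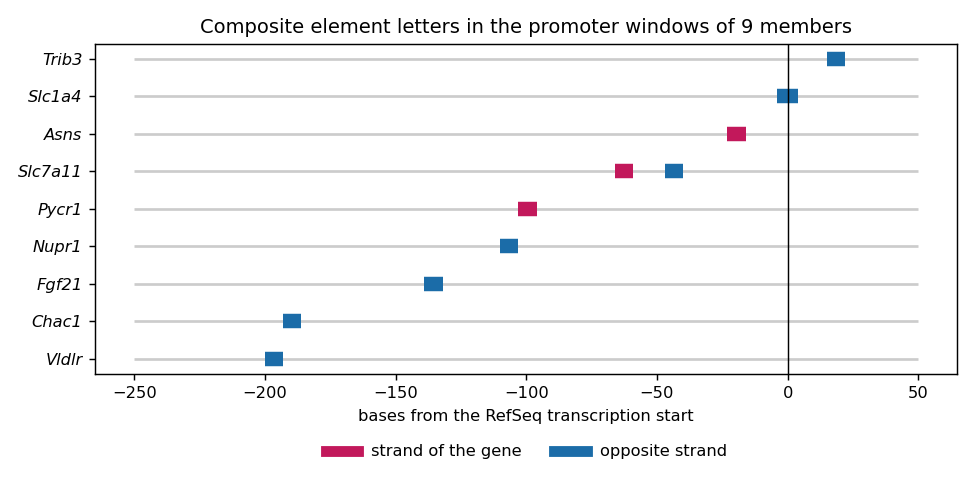
Positions of the composite element letters (TGATGNAA or its reverse) in the RefSeq promoter windows of the 9 members that hold them. The horizontal axis gives bases from the transcription start, grey lines mark the windows, and the colour gives the strand on which the letters read TGATGNAA. The elements are spread from -200 (Vldlr) to 22 (Trib3), and Slc7a11 is the only member with 2.

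Among all 29 tested members, 17 rose and 5 fell in A1-treated MSCs against control, and 7 did not pass the test (edgeR's quasi-likelihood test, adjusted p under 0.05 over 11314 genes). Of all tested genes, 31.7% rose and 31.1% fell. With a log2 fold change of at least 0.5 in addition, 10 members rose and 1 fell, where 9.41% of all genes rose and 11.6% fell. The median log2 fold change of the members was 0.28, beside 0.00 for all tested genes. In A1 + OVA-treated MSCs 19 members rose, 4 fell and 6 did not pass (background 29.7% and 27.9%), and 9 rose and 1 fell by at least 0.5 (background 8.92% and 8.79%), with a median of 0.29 beside 0.00. Both treatments were compared with the same 4 control libraries, so that their values are given side by side and are not independent.

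**Figure D2:**
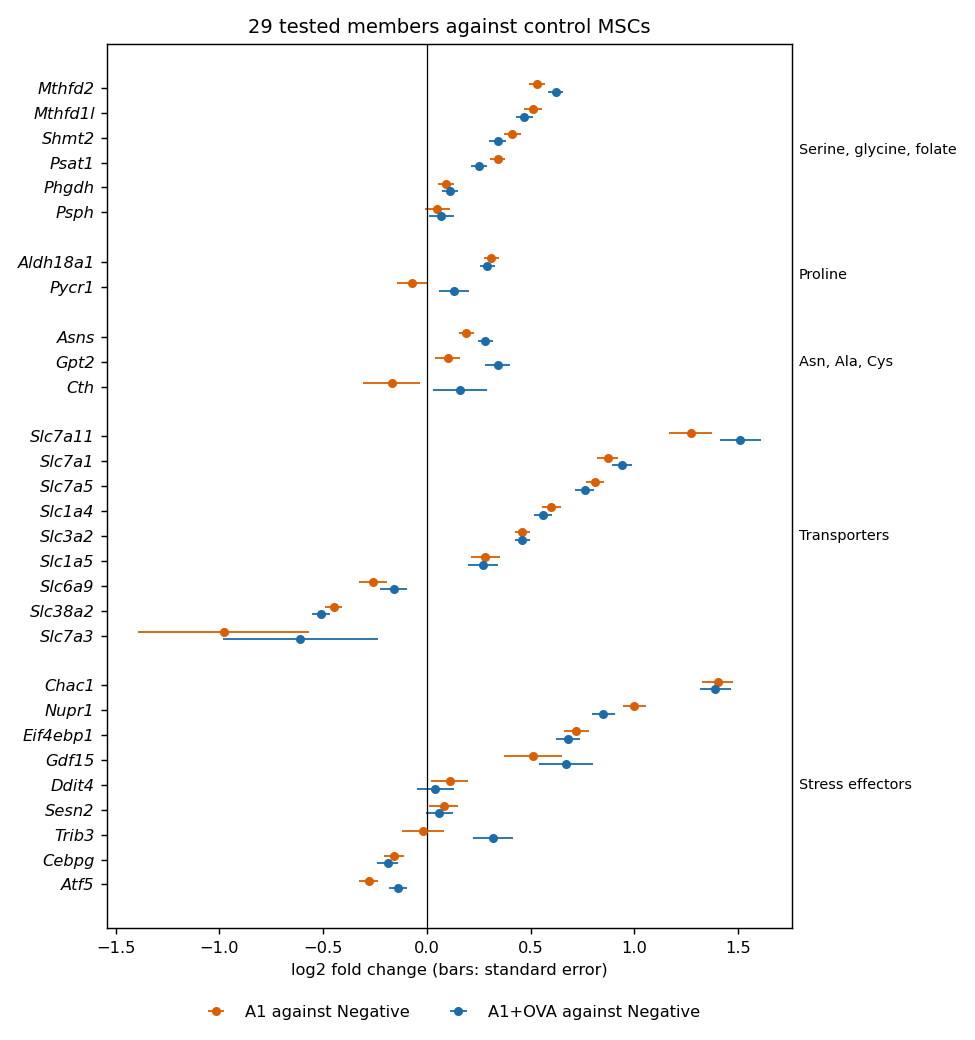
Log2 fold changes of the 29 tested members against control MSCs, by role, for A1 (orange) and A1 + OVA (blue), with points for the estimate and bars for its standard error (4 libraries per group). Slc7a11 and Chac1 lie furthest to the right, at 1.27 and 1.40 with A1, and transporters lie on both sides of 0.

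Serine and glycine synthesis and the mitochondrial folate enzymes were examined first. Of their 6 genes, 5 rose with A1 and 5 with A1 + OVA, where 31.7% and 29.7% of all tested genes rose. The largest rises among these 6 were those of the mitochondrial folate enzymes Mthfd2 and Mthfd1l. 0 genes of this list fell against control with edgeR, where 31.1% (A1) and 27.9% (A1 + OVA) of all tested genes fell. 0 also fell against control at an unadjusted p under 0.05 or with DESeq2. The median log2 fold change was 0.38 with A1 and 0.29 with A1 + OVA. Phgdh encodes phosphoglycerate dehydrogenase, which commits glycolytic 3-phosphoglycerate to serine. It was measured at 109 ± 3.63 CPM in control, 116 ± 3.23 CPM in A1 and 118 ± 3.50 CPM in A1 + OVA libraries. This was the smallest called change among the members, with a log2 fold change of 0.09 ± 0.038 (SE, edgeR adjusted p = 0.0424) with A1 and 0.11 ± 0.038 (edgeR adjusted p = 0.0146) with A1 + OVA. The A1 libraries overlapped with control, the A1 + OVA libraries did not. The call with A1 was lost under 13 of 20 other settings (adjusted p up to 0.153), and a processed pseudogene of Phgdh is annotated that could share reads with it.

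Psat1, phosphoserine aminotransferase, carries out the next step. Its levels in the 4 control libraries were 385, 377, 389 and 372 CPM, in the A1 libraries 499, 466, 484 and 481 CPM, and in the A1 + OVA libraries 471, 452, 452 and 431 CPM. All treated libraries were above all control libraries, and the A1 libraries were on the whole the highest. The log2 fold change was 0.34 ± 0.037 (edgeR adjusted p = 5.37e-08) with A1 and 0.25 ± 0.037 (edgeR adjusted p = 6.36e-06) with A1 + OVA. The last enzyme of the branch, the phosphatase Psph, did not pass the test, with 44.1 ± 2.86 CPM in control, 45.6 ± 3.90 CPM in A1 and 46.2 ± 2.06 CPM in A1 + OVA libraries (edgeR adjusted p = 0.510 and 0.360).

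Shmt2 splits serine into glycine and a one-carbon unit in mitochondria. It was measured at 149, 141, 156 and 153 CPM in control, at 205, 201, 188 and 201 CPM in A1 and at 191, 187, 198 and 184 CPM in A1 + OVA libraries. Every treated library was above the highest control library, with a log2 fold change of 0.41 ± 0.041 (edgeR adjusted p = 1.69e-08) and 0.34 ± 0.041 (edgeR adjusted p = 2.72e-07). Mthfd2 oxidizes the one-carbon unit on folate. Its control libraries lay at 109, 109, 106 and 109 CPM, its A1 libraries at 155, 149, 162 and 158 CPM and its A1 + OVA libraries at 161, 167, 171 and 168 CPM. The control and treated libraries did not overlap, and the log2 fold change was 0.53 ± 0.037 (edgeR adjusted p = 4.85e-11) with A1 and 0.62 ± 0.036 (edgeR adjusted p = 2.92e-12) with A1 + OVA. Mthfd1l releases formate from the same pathway. It went from 107, 110, 121 and 116 CPM to 160, 158, 157 and 171 CPM with A1 and 159, 152, 156 and 159 CPM with A1 + OVA. The groups did not overlap here either, with log2 fold changes of 0.51 ± 0.042 and 0.47 ± 0.042 (edgeR adjusted p = 7.57e-10 and 3.47e-09). Other mitochondrial folate enzymes, which are not members, did not rise. Aldh1l2 fell by 0.33 with A1 and by 0.19 with A1 + OVA (edgeR adjusted p = 7.51e-07 and 6.02e-04). Mthfd2l did not pass the test (edgeR adjusted p = 0.391 and 0.556).

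Proline is made from glutamate by enzymes that include Aldh18a1 and Pycr1. Aldh18a1, pyrroline-5-carboxylate synthase, rose from 154, 145, 157 and 151 CPM to 189, 188, 183 and 194 CPM with A1 and 191, 185, 187 and 180 CPM with A1 + OVA. Its libraries did not overlap with control, and the log2 fold change was 0.31 ± 0.037 and 0.29 ± 0.036 (edgeR adjusted p = 1.91e-07 and 5.05e-07). Pycr1, whose upstream element is printed above, did not pass the test. It was measured at 20.4, 16.6, 17.9 and 18.7 CPM in control, 18.3, 18.9, 16.9 and 16.0 CPM in A1 and 20.4, 18.9, 21.1 and 20.2 CPM in A1 + OVA libraries. Its control libraries overlapped with both treated groups, with log2 fold changes of -0.07 ± 0.076 and 0.13 ± 0.073 (edgeR adjusted p = 0.444 and 0.135).

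Of the 4 genes for asparagine, alanine and cysteine synthesis, 3 were tested. With A1 1 rose, where 31.7% of all tested genes rose, and with A1 + OVA 2 rose, where 29.7% of all tested genes rose. Asns, asparagine synthetase, is a long-studied ATF4 target. Its levels were 228, 221, 220 and 219 CPM in control, 254, 244, 260 and 253 CPM in A1 and 278, 279, 260 and 263 CPM in A1 + OVA libraries. All treated libraries lay above control, yet the rise was modest, at 0.19 ± 0.036 on the log2 scale (edgeR adjusted p = 1.33e-04) with A1 and 0.28 ± 0.036 (edgeR adjusted p = 8.49e-07) with A1 + OVA. Gpt2, the mitochondrial alanine aminotransferase, was measured at 34.0, 31.8, 38.3 and 35.4 CPM in control, 37.8, 38.3, 38.6 and 35.1 CPM in A1 and 43.6, 45.8, 46.1 and 40.7 CPM in A1 + OVA libraries. Control and A1 libraries overlapped (log2 fold change 0.10 ± 0.061, edgeR adjusted p = 0.144), whereas all A1 + OVA libraries were above both (0.34 ± 0.059 against control, edgeR adjusted p = 4.93e-05). Cth, which makes cysteine from cystathionine, had 5.71 ± 0.579 CPM in control, 5.07 ± 0.983 CPM in A1 and 7.18, 6.65, 6.60 and 5.24 CPM in the A1 + OVA libraries, with overlapping groups and no call (edgeR adjusted p = 0.296 and 0.292). Cbs, the enzyme before Cth, had at most 3 counts in any library and was not detectable at this depth.

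Of the 9 transporters 6 rose and 3 fell in A1-treated MSCs, where 31.7% of all tested genes rose and 31.1% fell. In A1 + OVA-treated MSCs 6 rose, 2 fell and 1 did not pass the test (29.7% and 27.9% of all genes). The median log2 fold change was 0.46 in both comparisons. With A1, 4 rose by at least 0.5, where 9.41% of all tested genes did. The 1 that fell by at least 0.5 (11.6% of all genes) was Slc7a3, a gene with few counts. With A1 + OVA 4 rose by at least 0.5 (8.92% of all genes). The 1 called lower by at least 0.5 (8.79% of all genes) was Slc38a2. Slc7a11 encodes xCT, which imports cystine in exchange for glutamate. Its levels were low in control, at 4.52, 4.43, 4.64 and 5.33 CPM, and reached 13.2, 10.5, 10.5 and 11.5 CPM in A1 and 14.1, 13.6, 12.4 and 13.9 CPM in A1 + OVA libraries. Every treated library was far above every control library. The fold change was 2.41 with A1 (log2 1.27 ± 0.103, edgeR adjusted p = 5.74e-10) and 2.85 with A1 + OVA (log2 1.51 ± 0.098, edgeR adjusted p = 1.74e-11).

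Slc7a1 (CAT1) imports the cationic amino acids arginine, lysine and ornithine. It went from 72.0, 79.7, 82.2 and 85.1 CPM in control to 144, 143, 142 and 156 CPM in A1 and 159, 144, 151 and 157 CPM in A1 + OVA libraries. The groups were far apart, with fold changes of 1.83 (log2 0.87 ± 0.050, edgeR adjusted p = 1.56e-12) and 1.91 (log2 0.94 ± 0.049, edgeR adjusted p = 5.31e-13). Slc7a5 (LAT1) imports large neutral amino acids, leucine among them. Its control libraries lay at 126, 115, 125 and 129 CPM, its A1 libraries at 225, 210, 217 and 213 CPM and its A1 + OVA libraries at 221, 212, 211 and 193 CPM. No treated library came near control, and the fold changes were 1.75 (log2 0.81 ± 0.045, edgeR adjusted p = 1.10e-12) and 1.69 (log2 0.76 ± 0.045, edgeR adjusted p = 3.33e-12). Slc3a2 (CD98 heavy chain) is the partner that both Slc7a5 and Slc7a11 need at the cell surface. It was measured at 122 ± 3.75 CPM in control, 169 ± 3.46 CPM in A1 and 168 ± 6.20 CPM in A1 + OVA libraries, with a log2 fold change of 0.46 in both comparisons (SE 0.038, edgeR adjusted p = 6.29e-10 and 7.03e-10).

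Slc1a4 and Slc1a5 carry small neutral amino acids in exchange. Slc1a4 (ASCT1) rose from 52.6, 50.8, 55.4 and 52.2 CPM to 81.9, 78.5, 77.7 and 82.4 CPM with A1 and 75.5, 75.2, 80.0 and 80.4 CPM with A1 + OVA. The groups did not overlap (log2 fold change 0.60 ± 0.044 and 0.56 ± 0.044, edgeR adjusted p = 1.02e-10 and 3.48e-10). Slc1a5 (ASCT2), known for glutamine, was measured at 62.2 ± 3.65 CPM in control, 75.3 ± 4.60 CPM in A1 and 74.9 ± 9.67 CPM in A1 + OVA libraries. It rose by 0.28 ± 0.070 and 0.27 ± 0.070 on the log2 scale (edgeR adjusted p = 0.00189 and 0.00244).

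The 3 transporters that fell were Slc38a2, Slc6a9 and Slc7a3. Slc38a2 (SNAT2) imports small neutral amino acids with sodium and is known to be induced by amino acid shortage. Its levels were 644, 728, 716 and 721 CPM in control, 501, 514, 518 and 524 CPM in A1 and 467, 488, 519 and 504 CPM in A1 + OVA libraries. Every treated library was below every control library, including control library 1, which stood apart from the other control libraries. On the log2 scale it fell by 0.45 with A1 (SE 0.042, edgeR adjusted p = 7.42e-09) and fell by 0.51 with A1 + OVA (SE 0.042, edgeR adjusted p = 1.23e-09). Slc6a9 (GLYT1), a glycine transporter, had 21.8 ± 1.12 CPM in control, 18.2 ± 1.09 CPM in A1 and 19.5 ± 0.868 CPM in A1 + OVA libraries. It fell by 0.26 with A1 (SE 0.066, edgeR adjusted p = 0.00197), and its fall with A1 + OVA (0.16 lower on the log2 scale, edgeR adjusted p = 0.0380) was lost under 8 of 20 other settings. Slc7a3 (CAT3) had at most 13 counts in any library. Its fall with A1 (log2 fold change -0.98 ± 0.410, edgeR adjusted p = 0.0426) was lost under 7 of 20 other settings, and with A1 + OVA it did not pass the test (-0.61, edgeR adjusted p = 0.168).

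**Figure D3:**
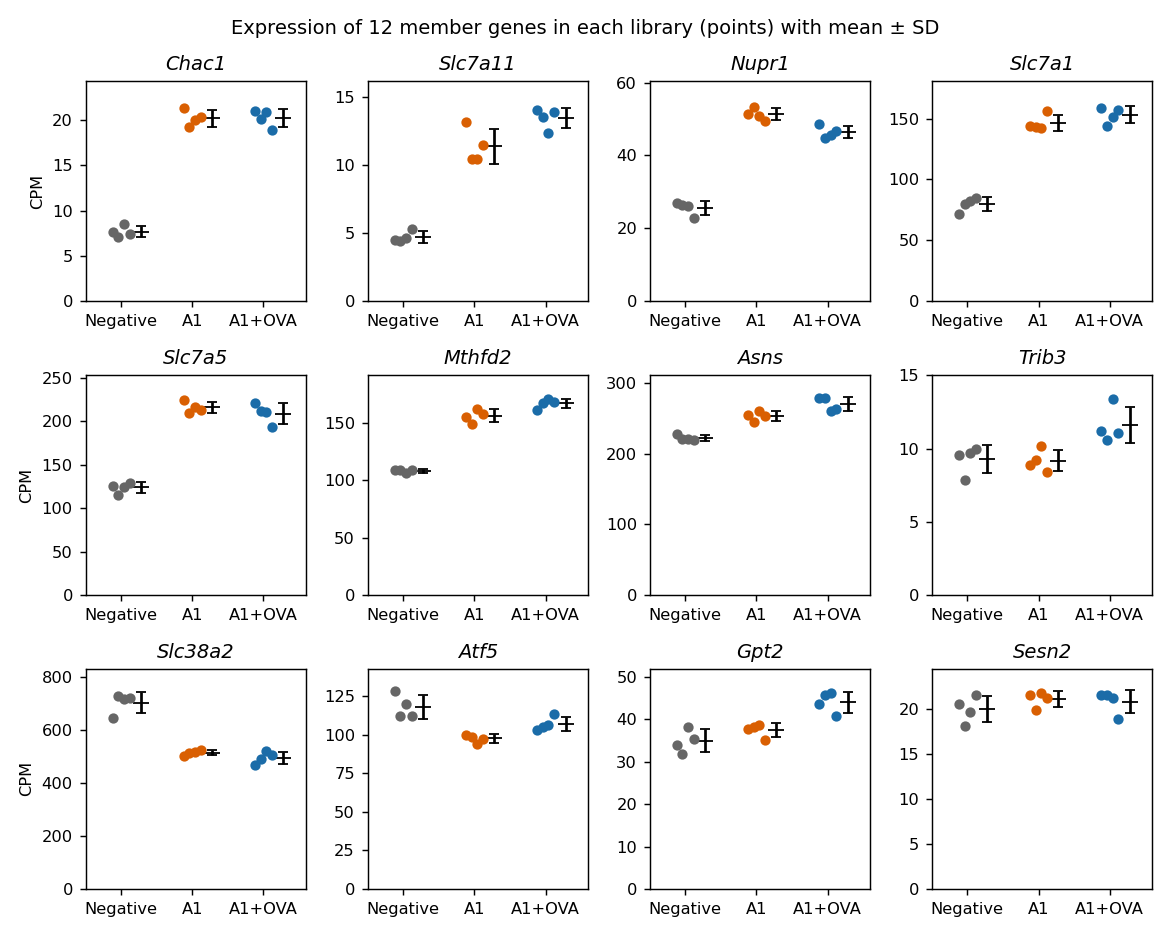
CPM of 12 members in each of the 12 libraries. Points are single libraries (control grey, A1 orange, A1 + OVA blue) and bars give the mean ± SD of 4, with each vertical axis starting at 0. Chac1, Slc7a11, Nupr1, Slc7a1 and Slc7a5 show a gap between control and treated libraries, Slc38a2 shows a gap in the opposite direction, and Sesn2 overlaps in all 3 groups.

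Of the 9 tested stress effectors 4 rose, 2 fell and 3 did not pass the test with A1, where 31.7% of all tested genes rose and 31.1% fell. With A1 + OVA 5 rose, 2 fell and 2 did not pass (29.7% and 27.9% of all genes). Chac1 encodes an enzyme that breaks down glutathione. Its control libraries lay at 7.67, 7.09, 8.54 and 7.46 CPM, its A1 libraries at 21.4, 19.2, 20 and 20.4 CPM and its A1 + OVA libraries at 21, 20.1, 20.9 and 18.9 CPM. The treated groups had the same mean of 20.2 CPM, and the fold change was 2.63 in both (log2 1.40 ± 0.077, edgeR adjusted p = 1.02e-12, and 1.39 ± 0.076, edgeR adjusted p = 9.73e-13). With A1 this was the largest log2 fold change among the 29 tested members.

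Nupr1 encodes a small chromatin-associated stress protein. It went from 27.1, 26.5, 26.1 and 22.9 CPM in control to 51.3, 53.4, 50.8 and 49.5 CPM in A1 and 48.7, 44.8, 45.5 and 46.8 CPM in A1 + OVA libraries. The groups did not overlap, with log2 fold changes of 1.00 ± 0.055 (edgeR adjusted p = 1.10e-12) and 0.85 ± 0.055 (edgeR adjusted p = 1.63e-11). Eif4ebp1 encodes 4E-BP1, the repressor of cap-dependent translation that mTORC1 controls. It was measured at 58.5, 44.6, 52.0 and 55.7 CPM in control, 89.9, 87.0, 83.4 and 85.9 CPM in A1 and 86.6, 84.1, 85.4 and 81.4 CPM in A1 + OVA libraries. Its log2 fold changes were 0.72 ± 0.060 and 0.68 ± 0.059 (edgeR adjusted p = 9.75e-10 and 2.35e-09), with no overlap.

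Trib3, Sesn2 and Ddit4 are widely used readouts of the same response, and 0 of these 3 passed the test with A1 (0 also at an unadjusted p under 0.05 and with DESeq2). Trib3, a pseudokinase that inhibits ATF4 signaling, had 9.59, 7.86, 9.71 and 10.0 CPM in control, 8.89, 9.24, 10.2 and 8.42 CPM in A1 and 11.2, 10.6, 13.4 and 11.1 CPM in A1 + OVA libraries. Control and A1 overlapped (log2 fold change -0.02 ± 0.102, edgeR adjusted p = 0.886), and the A1 + OVA libraries were above both (0.32 ± 0.096 against control, edgeR adjusted p = 0.00768). Sesn2, a leucine sensor that restrains mTORC1, had 20 ± 1.44 CPM in control, 21.1 ± 0.857 CPM in A1 and 20.8 ± 1.26 CPM in A1 + OVA libraries (edgeR adjusted p = 0.312 and 0.473). Ddit4 (REDD1), another inhibitor of mTORC1, had 13.7 ± 0.875 CPM, 14.8 ± 1.82 CPM and 14.1 ± 1.27 CPM (edgeR adjusted p = 0.284 and 0.724).

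Both transcription factors on the list fell, where 31.1% of all tested genes fell with A1 and 27.9% with A1 + OVA. Atf5, a relative of ATF4, had 128, 112, 120 and 112 CPM in control, 100, 98.5, 93.8 and 97.4 CPM in A1 and 103, 105, 106 and 113 CPM in A1 + OVA libraries. The A1 libraries were all below control, and the A1 + OVA libraries overlapped with it. Atf5 fell by 0.28 on the log2 scale with A1 (SE 0.046, edgeR adjusted p = 2.27e-05) and fell by 0.14 with A1 + OVA (SE 0.045, edgeR adjusted p = 0.00959). Cebpg, a C/EBP partner of ATF4, had 116 ± 6.28 CPM in control, 104 ± 4.44 CPM in A1 and 101 ± 6.77 CPM in A1 + OVA libraries. It fell by 0.16 and fell by 0.19 on the log2 scale (edgeR adjusted p = 0.00719 and 0.00193), and an exon of another annotated gene on the same strand, Gm44836, overlaps it.

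Of the 4 genes for secreted and surface proteins, only the stress cytokine Gdf15 was tested. It had 3.28, 2.84, 3.53 and 2.88 CPM in control, 4.85, 4.28, 4.58 and 4.14 CPM in A1 and 4.57, 4.37, 6.07 and 4.93 CPM in A1 + OVA libraries. The treated libraries lay above control, with log2 fold changes of 0.51 ± 0.139 and 0.67 ± 0.132 (edgeR adjusted p = 0.00310 and 1.80e-04). The hormone gene Fgf21 had at most 3 counts in any library, the lipoprotein receptor gene Vldlr at most 1 and the secreted glycoprotein gene Stc2 at most 5. A change in Fgf21 and Vldlr was not detectable at this depth, and Stc2 did not pass the filter.

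A1 + OVA-treated MSCs were compared directly with A1-treated MSCs. In this comparison too, the parts of OVA and of the insulin named in the labels cannot be told apart. Of the 29 tested members 2 were higher in A1 + OVA than in A1-treated MSCs, Gpt2 and Trib3, and 0 were lower (edgeR; 8 higher and 2 lower at an unadjusted p under 0.05, and 2 and 0 with DESeq2). Of all tested genes 6.05% were higher and 6.81% were lower. The median log2 fold change of the members was 0.00, beside 0.01 for all tested genes. For Gpt2 the log2 fold change was 0.23 ± 0.060 (edgeR adjusted p = 0.0131) and for Trib3 0.34 ± 0.100 (edgeR adjusted p = 0.0301), with all 4 A1 + OVA libraries above all 4 A1 libraries in both. Neither call held under every setting. Without A1 library 4 both were lost (0 members called), and Trib3 was also lost without A1 library 1 or 2 or without A1 + OVA library 3. Slc7a11 (0.24 ± 0.087, edgeR adjusted p = 0.0744), Atf5 (0.13 ± 0.046, edgeR adjusted p = 0.0652) and Nupr1 (-0.14 ± 0.052, edgeR adjusted p = 0.0764) were the members closest to the threshold among those not called. For Chac1 and Slc3a2 the estimate was 0.00 with SE of 0.067 and 0.037. The A1 + OVA libraries of Asns also lay above its A1 libraries, by 0.09 ± 0.036 on the log2 scale, without passing the test (edgeR adjusted p = 0.0928).

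**Figure D4:**
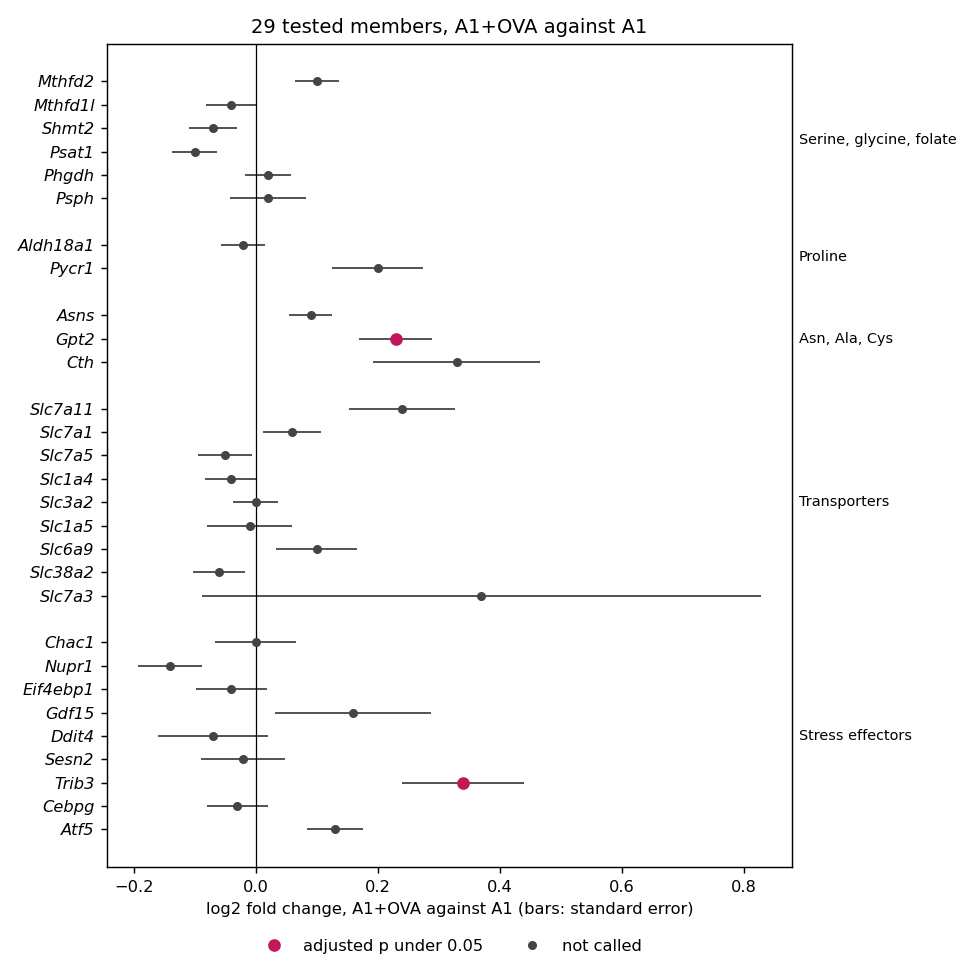
Log2 fold changes of the 29 tested members in A1 + OVA against A1-treated MSCs, with bars for the standard error (4 libraries per group). Gpt2 and Trib3, in red, are the called members, at 0.23 and 0.34, and most others lie close to 0, while Slc7a3 has by far the widest bar.

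Between genes, levels were compared per kilobase of annotated exon. In control MSCs Psat1 was highest, at 89.5 CPM per kb, followed by Asns at 81.2 and Slc38a2 at 79.4 CPM per kb, whose order rests on small gaps. Atf5 (59.3), Shmt2 (48.2) and Phgdh (43.8 CPM per kb) came next. Slc7a11 (0.340) and Slc7a3 (0.186 CPM per kb) were the lowest tested members. With A1, Slc38a2 moved down to 58.2 CPM per kb, level with Slc7a5 at 58.3, which had started at 33.3 CPM per kb. Chac1 moved from 4.70 to 12.4 CPM per kb and Slc7a11 from 0.340 to 0.819 CPM per kb, so that the large relative rises of both began from low levels. The exon length is that of all annotated exons of a gene together, and a gene whose long exons are not used in these cells is understated.

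**Figure D5:**
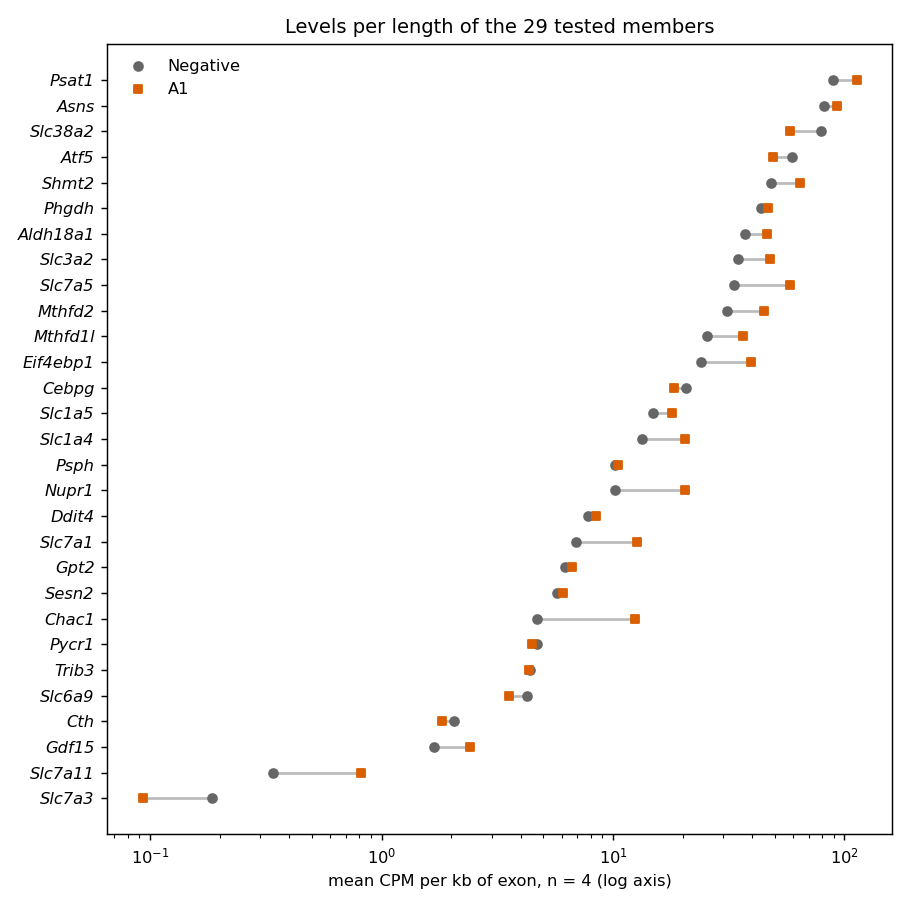
Mean CPM per kb of exon of the 29 tested members in control (grey circles) and A1-treated MSCs (orange squares), each the mean of 4 libraries, on a log axis. Psat1 is at the top and Slc7a3 at the bottom, and the longest lines are those of Chac1, Slc7a11, Nupr1, Slc7a3 and Slc7a1, of which that of Slc7a3 runs downward, from 0.186 to 0.0933 CPM per kb.

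Atf4 itself was measured at 298 ± 8.26 CPM in control, 393 ± 8.43 CPM in A1 and 385 ± 6.34 CPM in A1 + OVA libraries, a log2 fold change of 0.40 ± 0.035 (edgeR adjusted p = 1.97e-09) and 0.37 ± 0.035 (edgeR adjusted p = 7.33e-09). Its stress partner Ddit3 (CHOP) did not pass the test, with 26.5 ± 1.62 CPM, 23.5 ± 2.44 CPM and 25.5 ± 2.67 CPM (log2 fold change -0.17, edgeR adjusted p = 0.0638, and -0.05, edgeR adjusted p = 0.570). Further genes of the eIF2 and ATF4 response, kinases, phosphatase subunits and factors with Atf4 included, were counted (12 tested). With A1 4 rose and 3 fell (median 0.01), beside 31.7% and 31.1% of all tested genes. With A1 + OVA 5 rose and 4 fell (median 0.07), beside 29.7% and 27.9% of all tested genes. With A1, Ppp1r15a (GADD34), which directs the dephosphorylation of eIF2, rose by 0.58 and Eif2s1, the phosphorylated subunit of eIF2, by 0.47. Impact, an inhibitor of the kinase GCN2, fell by 0.62 with A1. The double-stranded RNA kinase Eif2ak2 and Ppp1r15b, the constitutive counterpart of Ppp1r15a, each fell by 0.30 with A1 on the log2 scale (edgeR adjusted p at most 9.40e-06 for these 5). The log2 fold changes with A1 + OVA were 0.53 for Ppp1r15a, 0.44 for Eif2s1, -0.34 for Impact, -0.34 for Eif2ak2 and -0.31 for Ppp1r15b. Impact was higher in A1 + OVA than in A1 libraries (0.28 ± 0.044, edgeR adjusted p = 2.52e-04).

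Other genes of the same pathways, taken from lists, were counted in the same fit, and the shares of all tested genes to set beside each count are 31.7% higher and 31.1% lower with A1 and 29.7% and 27.9% with A1 + OVA. Of 12 tested further enzymes of serine, glycine, folate and proline metabolism, 5 rose and 4 fell with A1 (median -0.02), and 3 rose and 4 fell with A1 + OVA (median 0.01). The proline reductase Pycr3 (0.42 ± 0.089) rose with A1, where the member Pycr1 did not pass the test. With A1 + OVA Pycr3 did not pass it (0.17 ± 0.090, edgeR adjusted p = 0.108). Shmt1, the cytosolic counterpart of Shmt2, had only 8 to 17 counts in a library, and its log2 fold change was 0.62 ± 0.259 with A1 (edgeR adjusted p = 0.0491) and 0.13 ± 0.272 with A1 + OVA (edgeR adjusted p = 0.736). The glycine cleavage genes Gldc (fell by 1.82 on the log2 scale, from 1.13 to 0.316 CPM) and Amt (fell by 0.95) and the proline breakdown gene Aldh4a1 (fell by 0.41) were lower with A1. The Aldh4a1 libraries overlapped with control, and Aldh4a1 did not pass the test with A1 + OVA (-0.10, edgeR adjusted p = 0.521). The A1 + OVA libraries of Amt also overlapped with control. Of 15 tested further amino acid enzymes, 9 rose and 1 fell with A1 (median 0.13), and 8 rose and 3 fell with A1 + OVA (median 0.23). The rises with A1 were led by glutathione synthetase Gss (0.97 ± 0.055), the aspartate aminotransferase Got1 (0.66 ± 0.046) and the branched-chain aminotransferase Bcat1 (0.61 ± 0.034). Asl, of arginine synthesis, fell by 0.28 with A1. The log2 fold changes with A1 + OVA were 0.93 for Gss, 0.71 for Got1, 0.46 for Bcat1 and -0.24 for Asl. Bcat1 was lower in A1 + OVA than in A1 libraries (log2 fold change -0.15, edgeR adjusted p = 0.00504).

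Of 15 further transporters tested, 4 rose and 8 fell with A1 (median -0.19, where 31.1% of all tested genes fell), and 3 rose and 8 fell with A1 + OVA (median -0.16, 27.9% of all genes). The difference from the member transporters was not tested. The rises with A1 were led by Slc38a1 (0.78 ± 0.273, from 0.868 to 1.51 CPM), Slc7a6 (0.47 ± 0.037), which like Slc7a5 pairs with Slc3a2, and Slc43a1 (0.40 ± 0.096). Slc38a1 had only 9 to 28 counts in a library, and its libraries overlapped with control in both comparisons. The falls with A1 were led by the glutamate transporter Slc1a3 (fell by 1.67, from 0.846 to 0.261 CPM), Slc38a6 (fell by 0.83) and Slc38a4 (fell by 0.78), the last 2 of the family of Slc38a2. Slc1a3 had 2 to 19 counts in a library, and the A1 + OVA libraries of Slc1a3 and Slc38a6 overlapped with control. Of 23 tested genes for amino acid sensing to mTORC1, with Mtor, Rptor and Rheb among them, 3 rose and 13 fell with A1 (median -0.21). With A1 + OVA 3 rose and 8 fell (median -0.12). The list mixes genes that restrain mTORC1 with genes that activate it, so that its median gives no direction for mTORC1 activity. The sestrins Sesn3, which went from 90.8 ± 2.54 to 35.3 ± 2.23 CPM (fell by 1.36, edgeR adjusted p = 8.27e-16), and Sesn1, from 48.8 ± 2.55 to 23.2 ± 1.5 CPM (fell by 1.07, edgeR adjusted p = 9.70e-13), led the falls with Nprl2 (fell by 0.50), while the member Sesn2 did not pass the test. Nprl2 had 61 to 139 counts in a library, and its libraries overlapped with control in both comparisons. With A1 + OVA Nprl2 did not pass the test (log2 fold change -0.14, edgeR adjusted p = 0.410). Rptor (0.26 ± 0.053), Mios (0.23 ± 0.050) and Rheb (0.17 ± 0.049) rose with A1.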

How the data were processed

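MSC RNA was measured in 12 libraries, grouped by the sample titles. Per the labels and the methods, the authors made strand-specific mRNA libraries, aligned the reads to GRCm38 with STAR 2.7 and counted them per gene with featureCounts 2.0 on Ensembl annotation, and the deposited values are raw counts of reads per gene. Symbols and exons came from GENCODE M21, which held 99.53% of the 55487 identifiers, 21974 of them protein-coding. Protein-coding genes that passed filterByExpr (11314) were TMM-normalized and tested with edgeR 4.0.16 (R 4.3.3), by the quasi-likelihood test in one fit of all 12 samples and 3 groups with no covariate, and Benjamini-Hochberg adjustment covered all of these genes. An adjusted p under 0.05 was a call. All members were named. Of the other lists, the up to 3 called genes with the largest log2 fold change in each direction with A1 were named, with Atf4 and Ddit3, and an item that this rule selects is not reported here. The members and lists were chosen with earlier results of these data known. DESeq2 1.42.0, other normalizations and filters, a replicate block and each library left out were tried as alternatives. The scripts were tested on simulated data. Between replicates the counts differed by 2.18 to 9.00 times the counting variance, so that no library was a copy. No batch is named for the libraries, and whether control MSCs received fresh medium is not given in the sources used here.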

Additional observations from a re-analysis of the deposited data

Results flagged for a closer look

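Of 90 sets of 4 libraries (30 genes with enough counts in 3 groups), 3 held a library whose gap to its nearest neighbour, relative to the range of the set, exceeded Dixon's critical value. Chance alone marks about 1 in 20 such sets. Mthfd1l was at 171 CPM in A1 library 4, where the other A1 libraries lay at 157 to 160 CPM. Slc38a2 was at 644 CPM in control library 1, where the other control libraries lay at 716 to 728 CPM, and the treated libraries remained below it. Sesn2 was at 18.9 CPM in A1 + OVA library 4, where the others lay at 21.2 to 21.6 CPM.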

How the results depend on the processing

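With a log2 fold change threshold of 0.5, the members called with A1 went from 17 to 10 higher and from 5 to 1 lower, and with a threshold of 1 to 2 and 0. With A1 + OVA they went from 19 to 9 higher and from 4 to 1 lower, and with a threshold of 1 to 2 and 0. For A1 + OVA against A1 the 2 higher calls went to 0 under both thresholds. Fewer genes can pass a stricter threshold by construction. Leaving out 1 library in turn, the counts ranged from 16 to 18 higher and 4 to 5 lower with A1, from 19 to 20 higher and 3 to 5 lower with A1 + OVA, and from 0 to 3 higher for A1 + OVA against A1 (0 lower throughout), the 0 being without A1 library 4. Over 20 settings other than these thresholds, 20 of 22 member calls with A1 and 22 of 23 with A1 + OVA were kept in every one, and 0 of 2 for A1 + OVA against A1. The calls lost were Phgdh and Slc7a3 with A1, Slc6a9 with A1 + OVA, and Gpt2 and Trib3 between the treatments, and the cause was not tested. Called in some setting only were Gpt2 with A1, Pycr1 and Slc7a3 with A1 + OVA, and Atf5 and Slc7a11 between the treatments. No called change reversed. Same-numbered libraries did not vary together (mean correlation of deviations 0.021 over 12 pairs, from -0.132 to 0.156, and 4 of 12 libraries correlated best with their own number). With a replicate block the counts were 16 higher and 5 lower with A1, 19 and 4 with A1 + OVA, and 2 and 0 between the treatments. Depth limited Cbs, Fgf21, Vldlr and Stc2, which could not be tested, and left wide errors for Slc7a3.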
